A study of Homo sapiens with 4 samples.

Results

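BMP4 acts through cell-surface receptor kinases that phosphorylate SMAD1 and its relatives SMAD5 and SMAD8 (also called SMAD9). The phosphorylated proteins join SMAD4 and enter the nucleus, where they bind short DNA elements, often as several sites along one regulatory region. In human embryonic stem cells (hESCs), BMP4 drives cells out of pluripotency towards trophoblast-like and mesodermal fates. The clustered BMP4-only peaks were the places in the genome where several SMAD1 peaks were listed side by side after BMP4 and none was listed nearby without it.

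The measurements are ChIP-seq peaks, stretches of DNA enriched by immunoprecipitation of SMAD1 from fixed chromatin, in the established hESC line H1 kept in mTeSR1 medium on Matrigel. The cells were left untreated or given 50 ng/ml of BMP4 for 60 min, and no genetic change is given for either condition. A single antibody against SMAD1 was used in both, on chromatin fixed with 1% formaldehyde. Of the 4 samples, only the 2 immunoprecipitated ones have a peak list here. By the study's methods its peaks came from merged replicates with the matching input as background. These lists are much longer than the peak numbers the study gives. H1 is a single line, so the lists describe this line only.

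A peak of the BMP4 list was taken as a member when no untreated peak lay within 50 kb of its edges and another such peak had its midpoint less than 10 kb away. Members were joined into groups on the same spacing. The rule selected 442 of the 7682 BMP4 peaks, or 5.75% (95% exact binomial interval 5.24 to 6.30), out of 12885 peaks in both lists together. They fell into 209 groups. Because the members were chosen by the peak positions in both lists, their numbers, spacings, widths and scores are descriptions and carry no test. There was 1 list for each condition, so no value has a replicate error. Intervals cover the number of peaks alone and treat peaks as independent. Clustered peaks come in groups by the rule, so intervals on their shares are likely too narrow. The lists do not give the sequencing depth.

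Of the groups, 1 could be tied to a gene from the study's own browser view, which shows SMAD1 signal on chromosome 10 across the starts of GATA3 and its antisense neighbour GATA3-AS1. GATA3 is a zinc-finger transcription factor of trophoblast and other lineages and the gene at the centre of the study. The sequences below are shown because this group is the member set that the study examined most closely. They are the 250 bases before 3 of the 6 GATA3 starts that RefSeq lists on GRCh38.p14, namely those that hold at least 1 of the SMAD-type motifs searched on both strands. Capitals mark GGCGCC, a GC-rich SMAD motif, as well as GGAGCC, the core of a BMP response element, which reads GGCTCC when it lies on the other strand.
GATA3 promoter, chr10:8045083-8045332 (+): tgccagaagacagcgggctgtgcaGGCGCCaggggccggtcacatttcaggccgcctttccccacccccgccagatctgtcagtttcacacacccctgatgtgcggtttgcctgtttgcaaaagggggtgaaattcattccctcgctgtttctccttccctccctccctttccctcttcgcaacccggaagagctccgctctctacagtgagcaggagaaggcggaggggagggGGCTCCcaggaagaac
GATA3 promoter, chr10:8053391-8053640 (+): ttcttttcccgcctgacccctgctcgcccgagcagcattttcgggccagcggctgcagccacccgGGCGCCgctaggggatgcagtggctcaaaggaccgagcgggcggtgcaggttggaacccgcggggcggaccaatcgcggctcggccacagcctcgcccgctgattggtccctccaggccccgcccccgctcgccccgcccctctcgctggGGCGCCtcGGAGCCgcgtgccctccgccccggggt
GATA3 promoter, chr10:8054438-8054687 (+): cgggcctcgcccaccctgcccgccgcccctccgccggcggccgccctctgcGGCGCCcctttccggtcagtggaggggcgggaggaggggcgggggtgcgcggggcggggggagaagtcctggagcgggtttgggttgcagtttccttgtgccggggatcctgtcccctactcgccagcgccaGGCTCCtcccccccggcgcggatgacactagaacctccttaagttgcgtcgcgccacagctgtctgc
The window at chr10:8053391-8053640 held 2 copies of GGCGCC and 1 of GGAGCC, and the other two windows held 1 of each. None held GTCTAGAC, the palindrome bound by SMAD3 and SMAD4. Over 35116 RefSeq promoter windows of the same length, GGCGCC was present in 16.4% of windows, GGAGCC in 30.6% of them and GTCTAGAC in 0.182%. The windows shown were chosen for holding a motif and the remaining GATA3 starts held none, so these shares are background and no comparison. The share of windows with any of the motifs was not computed. The peaks are listed on hg19 and these sequences on GRCh38.p14, so no listed peak is placed on a base of these windows. A motif match is a description of the letters only. The study also measured SMAD1 at this promoter by PCR on the immunoprecipitated DNA. Of the primers for its site 2, 1 matches the window at chr10:8054438-8054687 in full and the other with 1 base missing. From peaks and PCR together, the paper reports that BMP4 led to extensive binding of SMAD1 and its relatives at the early GATA3 promoter. Which letters SMAD1 contacts was not tested.

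The GATA3 group held 5 peaks across 13569 bp (chr10:8091852-8105420, hg19). The peak caller's score, which is 10 times the negative log10 of the peak's p-value and starts at 50, was 234, 369, 156, 254 and 50.1 from the first peak to the last. The first 4 midpoints lay within 5.64 kb, and the fifth, near the lowest score listed, stood 7037 bp further on. The closest untreated peak lay at 257 kb. The first peak was 1207 bp wide and the second, the highest-scoring, 1327 bp.

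Of the other groups, 3 also had 5 peaks, and no group had more. On chromosome 6 the group at chr6:10412364-10427263 held the highest score of all members. Its scores in order of position were 65.7, 57.6, 1343, 92.5 and 671, so a pair of peaks 8.97 kb apart stood far above the 3 low peaks around them. The peak of score 1343 was 1393 bp wide and ranked 295 among all BMP4 peaks. No untreated peak was listed closer than 93.8 kb.

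The group at chr1:23880787-23895422 spanned 14636 bp, with scores of 784, 132, 83.3, 546 and 195. In this group 4 of the 5 peaks had a score of at least 100, as in the GATA3 group. The strongest peak was the first, and the peak with 546 lay 7.32 kb from it. The closest untreated peak lay at 123 kb.

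The last of the 5-peak groups, at chr10:42794287-42815726, was the longest of all groups at 21440 bp and the weakest of its size. Its scores were 89.0, 58.7, 58.2, 51.8 and 51.3, so none reached 100. It lies on the long arm close to the centromere, and it was the only group between 42 and 43 Mb of that chromosome.

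**Figure D1:**
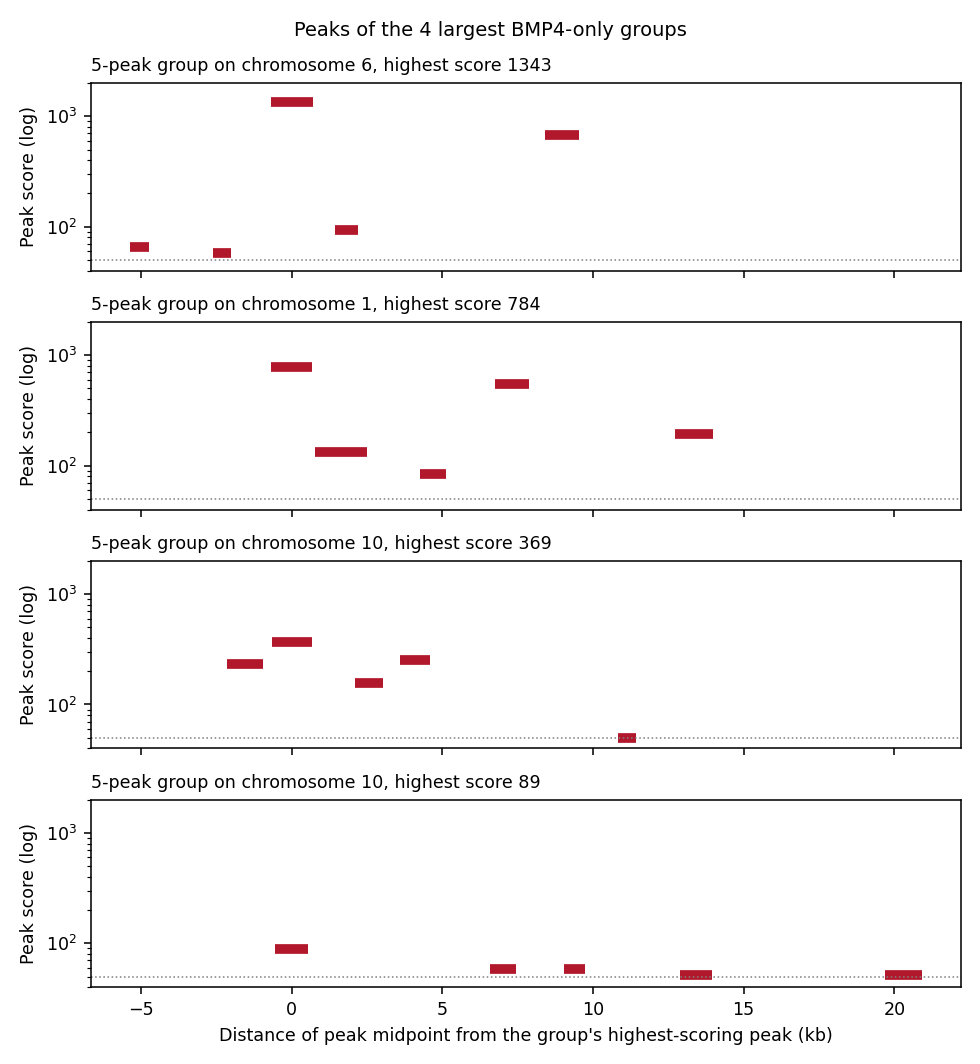
Peaks of the 4 groups of 5 peaks, with the distance of each peak from the highest-scoring peak of its group in kb on the horizontal axis and its score on a log axis on the vertical. Each bar is 1 peak drawn to its width, the dotted line is the lowest score listed (50), and the GATA3 group is the third panel. The groups on chromosomes 6 and 1 each hold 2 peaks of at least 546, the GATA3 group holds 4 between 156 and 369, and the group near the centromere of chromosome 10 has no peak over 89.0.

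The single group of 4 peaks was at chr6:37093657-37110072, with scores of 98.0, 51.3, 64.1 and 55.2 over 16416 bp. There were 10 groups of 3 peaks. The 4 given here are among those with the highest summed scores and are not the full top of that order. At chr15:66992844-67000214 the scores were 232, 158 and 82.4 over 7371 bp, and at chr9:119041519-119049091 they were 155, 82.3 and 95.6 over 7573 bp. At chr17:76339554-76349806 they were 75.2, 64.0 and 195, with an untreated peak 70.3 kb away. At chr6:167637357-167642437 they were 54.3, 178 and 97.8. The middle peak was the highest in the group on chromosome 6, the first on chromosomes 15 and 9 and the last on chromosome 17.

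One further group of 3, at chr2:172959810-172975578, was among the longest at 15769 bp, and its scores of 58.1, 87.8 and 65.0 all stayed under 100. Another, at chr3:128206592-128211566 and named after its values were seen, had a central peak of 188 between peaks of 59.0 and 65.6, with an untreated peak 75.9 kb away.

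Pairs made up most of the groups, at 194 of 209. The strongest pair was at chr5:561936-566130, where a peak of 166 lay beside one of 1067 that was 2857 bp wide. At chr3:176914550-176923754 a peak of 851 had a neighbour of 52.7 at the far end of a 9205 bp span, and at chr1:875457-878543 a peak of 547 followed one of 75.8. The weaker peak of the pair with 851 was close to the lowest score listed.

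Pairs with 2 strong peaks were rare. The pair at chr3:193851416-193859891, named after its values were seen, had scores of 466 and 455 at either end of 8476 bp. It was the only group in which every member reached 300. A score of at least 300 in 2 or more members occurred in 3 of the 209 groups, or 1.44%, namely this pair and the 5-peak groups on chromosomes 1 and 6. All members reached 100 in 7 groups, each a pair, and 3 of these were on chromosome 3. Besides chr3:193851416-193859891 they had scores of 120 and 199 at chr3:117117083-117119294 and of 148 and 120 at chr3:156391441-156393892. The others outside chromosome 5 had scores of 158 and 111 at chr8:9121318-9127921, of 269 and 126 at chr16:49730009-49736370 and of 224 and 109 at chrX:91844419-91846380.

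More often a strong peak had a weak companion. A member of at least 300 was present in 14 groups, or 6.70%, and in 11 of these no second member reached that score. Among the pairs, named here after their values were seen, a peak of 507 was followed by one of 55.7 at chr4:8862136-8864092, where the edges nearly touched. At chr4:65592751-65601485 a peak of 514 had one of 53.6 at the other end of 8735 bp, more than 1 Mb from any untreated peak. The pairs at chr6:98487268-98489581 (445 and 71.1) and chr9:38068906-38078249 (379 and 53.4) were as remote. The weaker peak came first at chr5:34410526-34412536 (73.4 and 476) and at chr14:69259449-69263714 (65.7 and 357).

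The typical group was much weaker. The median over groups was 81.4 for the highest score and 56.1 for the second highest. A member of at least 100 was present in 72 groups, or 34.4% (28.0 to 41.3), and 2 or more such members in 12, or 5.74%. In 34 groups, or 16.3%, every member scored under 60. Scores of neighbouring members hardly went together, with a Spearman rho of 0.05 over 233 neighbouring pairs, which share 1 library and its depth. Score and width rose together across the members (rho 0.71, n = 442).

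Larger groups had higher scores per peak only in part. The median score was 62.0 over the 388 peaks in pairs, 82.3 over the 30 in groups of 3 and 59.7 over the 4 in the group of 4. It was 112 over the 20 peaks in groups of 5, where 10 peaks reached 100, against 69 of 388 in pairs. These 20 peaks came from only 4 groups. Of the 10, the GATA3 group and the group on chromosome 1 held 4 each, that on chromosome 6 held 2 and that near the centromere of chromosome 10 held 0.

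The groups were short. Their span had a median of 5026 bp (95% order-statistic interval 4369 to 5601, quartiles 2891 and 7863) and ran from 1211 to 21440 bp. Peaks covered 29.6% of the 1172 kb that the groups spanned. Neighbouring midpoints were a median of 3815 bp apart (3302 to 4413), and the 233 distances were spread over the range the rule allowed, with 62 under 2 kb, 61 from 2 to 4 kb, 39 from 4 to 6 kb, 46 from 6 to 8 kb and 25 from 8 kb up. The edges of neighbours were under 1 kb apart in 56 of the 233 cases, or 24.0% (18.7 to 30.0), and the closest pair was separated by 2 bp. In 48 groups every gap was that short, and whether such neighbours are 1 broad enriched stretch listed in pieces was not tested.

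Span did not separate strong groups from weak ones. The median was 5088 bp in the 72 groups with a member of at least 100 and 4938 bp in the other 137, and each interval held the other median.

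By the rule, every group lay more than 50 kb from any untreated peak. The median distance to the nearest untreated peak was 226 kb (181 to 294), with 171 groups more than 100 kb away and 19 more than 1 Mb. For groups of untreated peaks chosen by the same rule turned round, the median distance to a BMP4 peak was 177 kb (134 to 218). These distances run to lists of unequal length, 5203 untreated and 7682 BMP4 peaks. They therefore do not show which groups were the more remote. The BMP4-only groups were mostly scattered among themselves, since consecutive groups were under 100 kb apart in 4 cases. In 1 of these, a pair at chr6:10383770-10392219 with scores of 55.3 and 261 lay before the 5-peak group on chromosome 6. The nearest midpoints of that pair and that group were 20921 bp apart. At the limits of the rule, the widest spacing inside a group was 9969 bp and the narrowest that kept peaks apart was 10045 bp. The member closest to an untreated peak was 51.7 kb from it, and the farthest peak left out for that reason was 49.96 kb from one.

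Of the 5380 BMP4 peaks with no untreated peak within 50 kb, the members made up 8.22% (7.50 to 8.98) and the other 4938 stood alone. Clustered peaks had a median score of 63.4 (61.3 to 66.0) and isolated ones 61.0 (60.4 to 61.5), and the difference lay mainly in the upper part of the range, where the upper quartiles were 91.9 and 76.2. A score of at least 100 was held by 88 members, or 19.9% (16.3 to 23.9), against 12.6% (11.7 to 13.6) of isolated peaks. For a score of at least 300 the shares were 3.85% (2.26 to 6.09) and 1.03% (0.770 to 1.36). The median width was 681 bp for members and 641 bp for isolated peaks. Among these 5380 peaks the highest score, 1614, belonged to an isolated peak.

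The same rule turned round gives the background. Among the 2804 untreated peaks with no BMP4 peak within 50 kb, 256 were clustered, or 9.13% (8.09 to 10.3), in 121 groups. The share of members after BMP4 was therefore no higher than this background. The number of clustered peaks was larger after BMP4, but its order depended on the lists. With a minimum score of 100 in both lists, 51 BMP4 peaks and 62 untreated peaks were clustered, and with the BMP4 list shortened to the length of the untreated one the counts were 203 and 304.

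The mirrored groups also resembled the BMP4-only groups in most measures. Their median span was 4820 bp, a member of at least 100 was present in 35.5% of them, and 9.09% (4.63 to 15.7) held 3 or more peaks, against 7.18% (4.07 to 11.6) of the BMP4-only groups. Clustered untreated-only peaks had a median score of 62.6 against 57.8 for isolated ones, so a shift in the same direction as after BMP4. A score of at least 100 was held by 19.9% (15.2 to 25.3) of these clustered peaks and 6.75% (5.81 to 7.79) of isolated ones. For at least 300 the shares were 1.56% (0.427 to 3.95) and 0.706% (0.419 to 1.11). A higher share of scores of at least 100 among clustered peaks was therefore present in both lists. Edges under 1 kb apart made up 24.4% of untreated-only neighbours, close to the 24.0% after BMP4. Scores of neighbouring untreated-only members had a rho of 0.19 over 135 pairs, against 0.05 after BMP4. Score and width had a rho of 0.59 (n = 256), against 0.71 after BMP4.

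Groups with more than 1 strong peak were compared with no test and at scores chosen after the values were seen, and the order of the sets depended on the score. At least 2 members of 100 or more were found in 5.74% of the BMP4-only groups (3.0 to 9.81) and in 6.61% of the mirrored groups (2.90 to 12.6), and all members reached 100 in 3.35% and 4.96%. Higher up the order turned. In the mirrored groups the second-highest score never passed 165, whereas 5 BMP4-only groups passed that value. These were the 5-peak groups on chromosomes 6 and 1, the GATA3 group and the pairs at chr3:193851416-193859891 and chr5:561936-566130. At least 2 members of 200 or more were found in 4 of 209 BMP4-only groups, or 1.91% (0.524 to 4.83), and in 0 of 121 mirrored groups, with an upper limit of 3.0% by the same exact interval, so the intervals overlap. Groups of 5 numbered 4 after BMP4 and 0 in the mirrored set, whereas groups of 4 numbered 1 and 3, so groups of at least 4 made up 2.39% (0.781 to 5.49) and 2.48% (0.514 to 7.07). Scores of the lists need not mean the same enrichment, since the depth of each list is unknown.

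**Figure D2:**
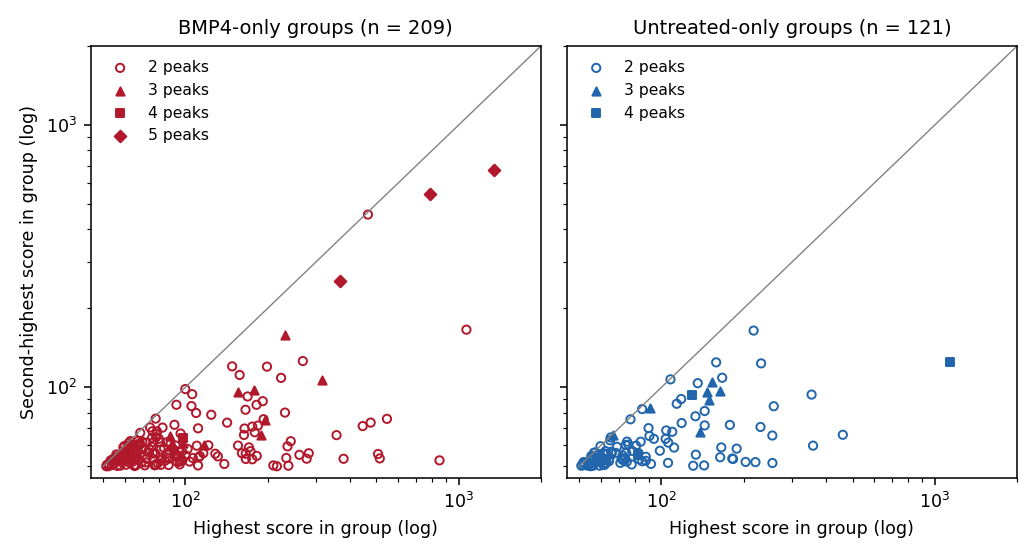
Highest score (horizontal, log axis) against second-highest score (vertical, log axis) of each group, for the 209 BMP4-only groups on the left and the 121 untreated-only groups of the mirrored rule on the right, with symbols for the number of peaks. Most groups lie along the bottom, where the second peak is near the lowest score of 50, and 5 BMP4-only groups but no untreated-only group have a second score over 165.

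The share of clustered peaks rose with the score after BMP4. Among BMP4 peaks far from untreated peaks it was 7.32% (6.34 to 8.41) for scores from 50 to 60 and 7.89% (6.78 to 9.11) from 60 to 100. It was 10.2% (7.78 to 13.0) from 100 to 200, 16.3% (9.42 to 25.5) from 200 to 300 and 25.0% (15.3 to 37.0) from 300 up, where 17 of 68 peaks were clustered. In the mirrored set the share was 6.90% in the lowest band and 22.9% (16.9 to 30.0) from 100 to 200. In the 2 bands above it was 25.8% (11.9 to 44.6, 8 of 31 peaks) and 18.2% (5.19 to 40.3, 4 of 22 peaks). The untreated share thus also rose up to the band from 200 to 300, but the highest band, with few peaks, was lower. From 100 to 200 the untreated share was the higher one, with intervals that did not overlap but treat peaks as independent.

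**Figure D3:**
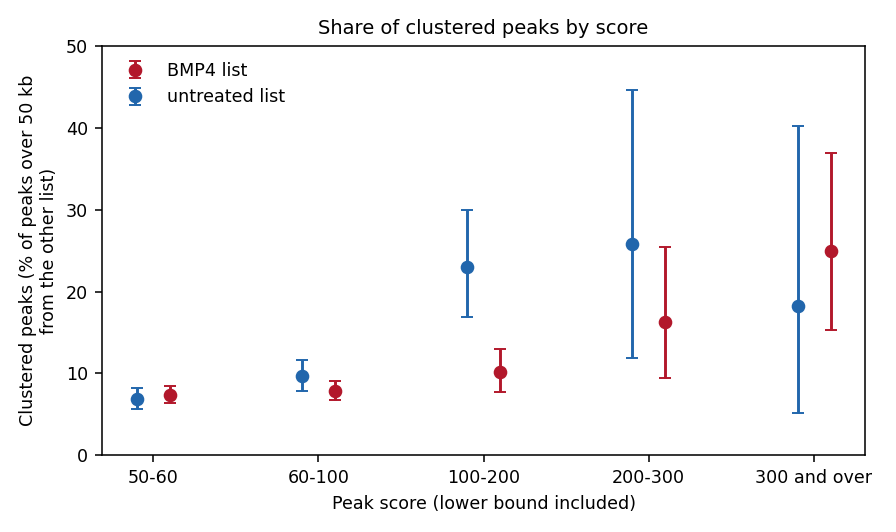
Share of clustered peaks among the peaks more than 50 kb from the other list (vertical, percent) by score band (horizontal), for the BMP4 and the untreated list. Points are shares and bars are 95% exact binomial intervals. The BMP4 share goes from 7.32% in the lowest band to 25.0% in the highest. The untreated share goes from 6.90% to 22.9% by the third band and is 18.2% in the highest, which holds 22 peaks.

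Members were present on all 24 chromosomes but not evenly. Chromosome 3 held 57 members in 27 groups, which was 12.9% of the members against 7.49% of the isolated peaks. Chromosome 10 held 38 members in 16 groups, and 13.9% (10.0 to 18.6) of its BMP4 peaks far from untreated peaks were clustered, against 1.61% (0.196 to 5.70) of its 124 untreated peaks far from BMP4 peaks. The clustered untreated peaks there were 2, in 1 group. The BMP4 share was the higher one on 12 chromosomes and the untreated share on the other 12, and the intervals were apart on 3 of the 24, chromosomes 1, 10 and 17. Members of a group are not independent, so these intervals are likely too narrow, and they are not adjusted for 24 comparisons. Chromosomes 1 and 17 went the other way from chromosome 10, at 6.72% and 4.70% after BMP4 against 15.6% and 18.3% in the mirrored set, although chromosome 1 holds one of the strongest 5-peak groups. On chromosome 3 the shares were 13.3% (10.3 to 16.9) and 8.25% (4.79 to 13.0), with intervals that overlapped. They also overlapped on chromosomes 16 and 19, where the shares were 7.41% and 2.20% after BMP4 against 19.0% and 14.5%.

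**Figure D4:**
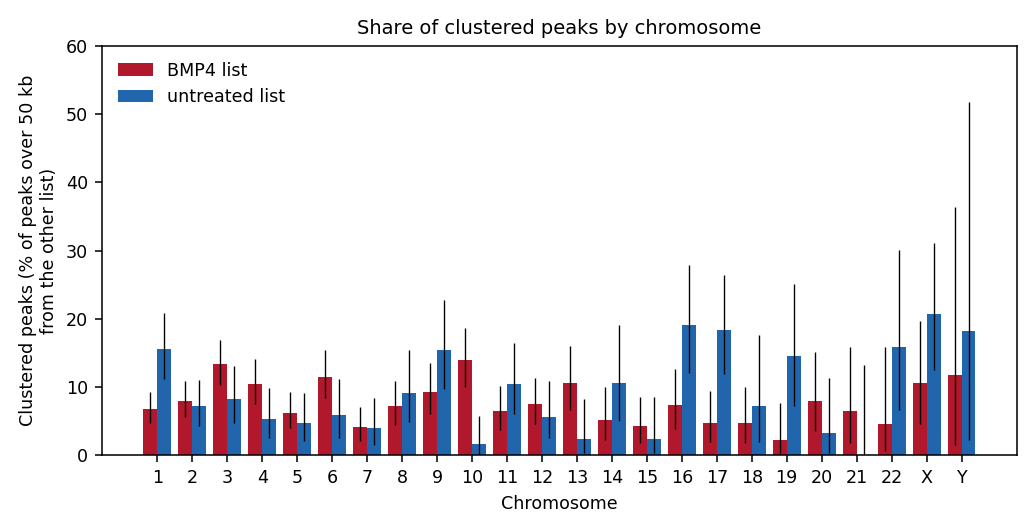
Share of clustered peaks among the peaks more than 50 kb from the other list (vertical, percent) by chromosome (horizontal), with red bars for the BMP4 list and blue bars for the untreated list. Black lines are 95% exact binomial intervals that treat peaks as independent. The BMP4 share is the higher one on 12 chromosomes and the untreated share on 12, and the intervals are apart on chromosome 10, where BMP4 is higher, and on chromosomes 1 and 17, where untreated is higher.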

How the data were processed

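By the study's methods and the submitters' processing notes, the authors checked reads with FastQC, aligned them to hg19 with BWA 0.7.5a, merged replicates and called peaks with MACS 1.4.2. The lists hold 5203 untreated and 7682 BMP4 peaks, many times more than the study gives, and may stem from another run. The study gives fewer peaks after BMP4 than untreated, which is the opposite order. It states that its peaks include non-specific enrichment at tRNA regions. Each deposited list gives peak positions and a score, read here as 10 times the negative log10 of the p-value, since the lowest score was 50 (p-value 1e-05). Starts were read as counted from 0 and are printed from 1. The lists hold no counts, so the depth of each list and its precision are unknown. The study gives a mean aligned read count over its SMAD1 and input samples together, and none by condition.

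Members and groups were found with Python 3.11.15, scipy 1.17.1, pandas 2.3.3, numpy 2.4.6 and, for plots, matplotlib 3.10.9. The grouping was tested on simulated lists. The members, gene and motif lists and rules were chosen with earlier results of these data known. Groups named were the 10 with most peaks (ties by summed score), the 5 holding the highest scores and the 3 longest. One of them is not reported here. The genome used here was hg38, so placing peaks on genes, the BMP gene list and motifs within peaks were not analysed here. The 2 input samples entered only as the authors' background.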

Additional observations from a re-analysis of the deposited data

How the results depend on the processing

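The number of members (442) was 275 with midpoints under 5 kb apart and 686 with midpoints under 20 kb apart. It was 51 with a minimum score of 100 in both lists and 203 with both lists reduced to the length of the shorter one by score. Under the same 4 alternatives the number of groups was 132, 320, 22 and 94, the percentage of BMP4 peaks was 3.58, 8.93, 3.28 and 3.90, and the median span was 3335, 8709, 6667 and 5883 bp. The percentage was also 4.69 with no untreated peak within 100 kb and 8.33 when only overlap with an untreated peak was barred. The median score of members was 166 with the minimum score and 75.8 with the shortened lists. The mirrored untreated count (256) was 169 with 5 kb, 62 with the minimum score, and 640 when only overlap was barred, where the BMP4 count was also 640. A narrower or wider spacing limit changes the counts by construction. Why the other values shifted was not tested. Of 48 values under the alternatives, 25 stayed within 1.5 times (counts) or within their interval. Added after seeing the data, the shares of far peaks that were clustered were 5.89% after BMP4 and 9.59% untreated with the shortened lists, and 5.53% and 13.9% with the minimum score.

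The GATA3 group kept 4 peaks with the minimum score, with 5 kb and with the shortened lists. With the minimum score the 5-peak group on chromosome 1 kept 4 peaks, that on chromosome 6 kept 2 and that at chr10:42794287-42815726 kept 0. Unknown depth limits every comparison of the lists. No paired analysis was possible because there was 1 list for each condition.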
